A study of Mus musculus with 18 samples.

Results

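The difference between the liver's response to GW4064 in WT mice and its response in whole-body FXR knockout mice was measured in 12 of the 18 arrays of the series. GW4064 is a synthetic agonist of the farnesoid X receptor (FXR, gene symbol Nr1h4). All mice were males on a C57BL/6J background, 10 to 16 weeks old, kept under a light-dark cycle. They received vehicle or GW4064 by oral gavage, 2 doses of 150 mg per kg by the labels, the first in the evening and the second in the next morning, and the liver was taken 2 hours after the second dose. The 12 arrays fall into 4 groups, WT with vehicle, WT with GW4064, whole-body knockout with vehicle and whole-body knockout with GW4064, with 3 arrays in each. The other 6 arrays are of mice that lack FXR in hepatocytes through an albumin Cre crossed to a floxed Fxr allele, and they are set beside these results where that helps to read them. The methods of the study describe the WT mice alone and give another dose, another number of doses and a fast, and they name another array than the one whose probe set identifiers the values carry. The values do not settle which dose was used. Nothing in the labels besides the replicate numbers says that the knockout arrays come from separate animals, and the p-values then measure the spread between these samples. How FXR was disrupted in the whole-body knockout is not given in the sources used here.

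The quantity reported for each gene is the interaction, which is the log2 difference between GW4064 and vehicle in WT minus the same difference in the knockout. A value of 1 is a factor of 2. It is above 0 where WT mRNA rose more, or fell less, than the knockout mRNA. Each value comes with its standard error (SE) from a limma fit over all genes, and the p-values were adjusted over all 12394 genes by the Benjamini-Hochberg method. The verbs rose and fell are kept for GW4064 effects in WT that passed this adjusted test.

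FXR is a nuclear receptor that bile acids activate. It binds DNA as a partner of RXR, typically at an inverted repeat of the half-site AGGTCA. In hepatocytes it raises the transcription of Nr0b2, which encodes the small heterodimer partner (SHP), a repressor without a DNA-binding domain. SHP, together with the intestinal hormone FGF15, represses the genes of bile acid synthesis. A response that is present in WT and missing in mice without FXR in any tissue is a difference between these genotypes. This comparison cannot separate the liver from the intestine, or the loss of FXR from other differences between the genotypes.

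Nr1h4 mRNA was between 8.83 and 9.39 on the log2 scale in the 6 WT arrays and between 3.98 and 4.30 in the 6 whole-body knockout arrays, which follows the genotype on each label. The interaction of Nr1h4 itself was 0.01. Hepatocyte markers had summed log2 levels of 17.04 to 17.18 in all 12 arrays. Array medians of all 18 arrays lay between 5.96 and 6.00.

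Some arrays stood apart. Whole-body knockout GW4064 replicate 3 had the lowest mean correlation of its group with its own group (0.98876) and an interquartile range of relative expression of 0.231. Its mRNA for male-biased liver genes was low, with Cyp2d9 at 10.71 against 13.08 to 13.83 in the other 17 arrays and Hsd3b5 at 4.91 against 9.03 to 12.18. The female-biased Sult3a1 was 8.93 there and 3.36 to 3.75 elsewhere, and Cyp2b13 was 8.89 against 4.36 to 5.85. Its Xist level of 5.52 was inside the range of the others, 5.19 to 6.11, as was that of the Y-linked Kdm5d, 6.37 against 6.13 to 6.70. The Y-linked Eif2s3y was 7.99 there, 8.17 in whole-body knockout vehicle replicate 1 and 8.88 to 9.32 in the remaining arrays. The choice of these genes was made with their levels in view. WT GW4064 replicate 1 had the widest spread of relative expression of the series, 0.259, and WT GW4064 replicate 3 had its highest correlation, 0.99529, with a WT vehicle array. Nnt, a mitochondrial gene that differs between C57BL/6 substrains, was 8.34 to 8.76 in WT and 9.73 to 10.15 in the whole-body knockout, so strain background and the loss of FXR cannot be told apart between the genotypes.

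No gene had an adjusted p under 0.05 for the interaction in limma, 0% of 12394 genes, and the lowest adjusted p was 0.193. Without adjustment, 1017 genes (8.21%) had a p under 0.05. The median SE was 0.149 and the median 95% interval reached 0.316 to either side. With the thresholds of the study (1.5 fold and an unadjusted p under 0.05), 106 genes lay above 0 (0.855%) and 139 below 0 (1.12%), 245 in all (1.98%). These genes failed the adjusted test and are described as past the unadjusted thresholds. Without whole-body knockout GW4064 replicate 3, the lowest adjusted p was 0.388, and 122 genes lay above 0 (0.984%) and 112 below 0 (0.904%), of which 75 and 82 were among the first sets. All 106 and all 139 kept their sign, which the thresholds and the arrays shared by both fits favour. The adjusted count turned on other arrays. It was 16 above 0 and 6 below without WT GW4064 replicate 3, 1 and 1 without WT vehicle replicate 2, and 0 and 1 without whole-body knockout GW4064 replicate 1.

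Most of the 245 genes had effects of opposite sign in WT and in the knockout. The knockout effect had the opposite sign to the WT effect in 83 of the 106 genes above 0 and in 122 of the 139 below 0, compared with 47.23% of all genes, a share that the thresholds themselves favour. The WT effect was the larger in 78 and 90 genes, and the knockout effect in 28 and 49. The median WT effect was 0.55 in the genes above 0 and -0.51 in those below, and the median knockout effect was -0.24 and 0.32. Without replicate 3 the knockout medians were -0.15 and 0.19. The WT arrays with GW4064 did not overlap those with vehicle in 59 and 74 of these genes, against 14.7% of all genes, which again follows from the thresholds.

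**Figure D1:**
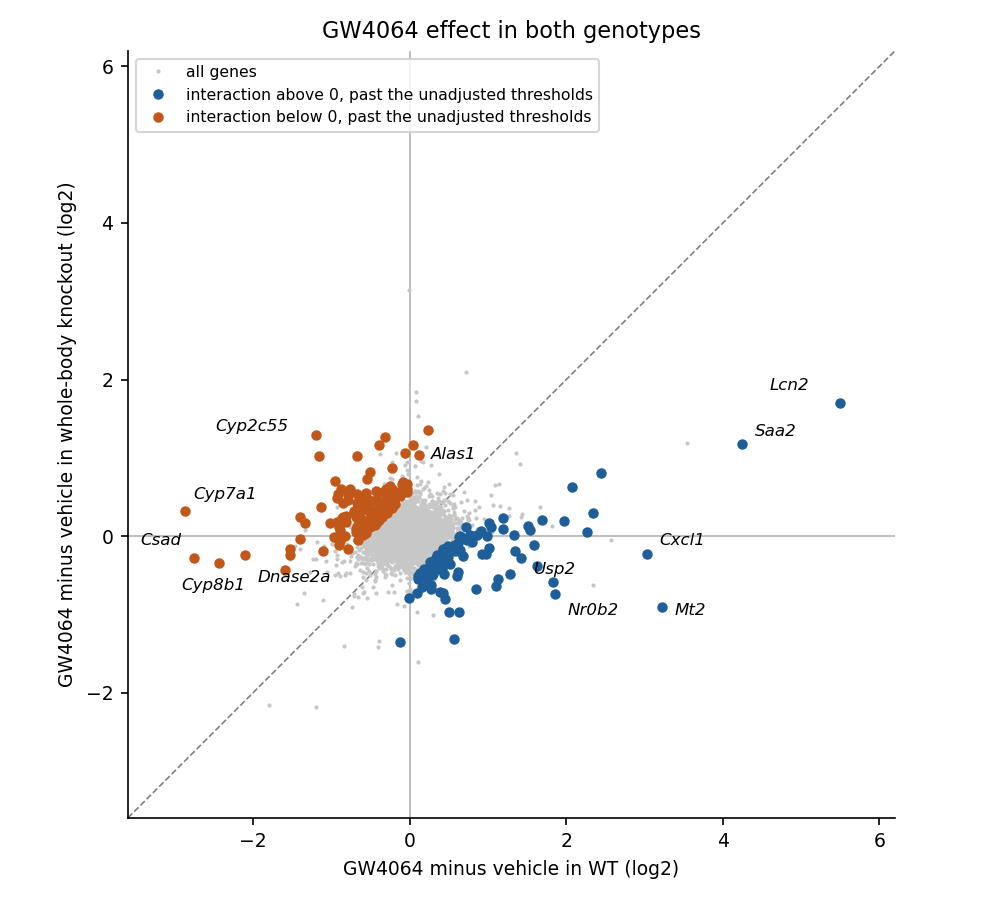
GW4064 effect in WT (x axis) against the effect in whole-body knockout (y axis), both as log2 difference between GW4064 and vehicle, for 12394 genes (grey). The 106 genes above 0 (blue) and 139 below 0 (orange) for the interaction lie off the dashed line of equal effects, with Lcn2 at 5.50 in WT and 1.70 in the knockout farthest to the right.

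Among the 20 named genes with the lowest unadjusted p past these thresholds, 10 in each direction, were the FXR target Nr0b2, the clock output gene Usp2, the interleukin-1 receptor Il1r1 and the retinol dehydrogenase Rdh9 above 0, and the taurine enzyme Csad, the clock gene Arntl and the collagen Col4a1 below 0. The promoters of 15 of the 20 genes were in the RefSeq table (GRCm38.p6), from 250 bases before to 50 after the transcription start. They were searched for the inverted repeat AGGTCA, any 1 base, TGACCT, whose reverse complement is the same, on both strands and with at most 2 mismatches. Rdh9 and Saa4 held a match, 2 of 15 (13.3%), compared with 125 of 9888 measured genes with a promoter (1.26%). Of the genes past the unadjusted thresholds, 5 of 85 above 0 (5.88%) and 1 of 110 below 0 (0.909%) held one, and so did 0 of 20 of the genes that rose or fell in WT (0%). The windows below show the match in capitals, as the promoters of the genes with the lowest p that carry it, beside that of Abcb11, the bile salt export pump and a known FXR target, whose interaction was not past the thresholds. The 3 windows lie on chr10:127776318-127776347 (plus strand), chr7:46732685-46732714 (minus strand) and chr2:69342658-69342687 (minus strand), each match has 1 mismatch, and all lie upstream of the transcription start. A match of letters is a description of the sequence and not a measured site.
Rdh9: atcagaacAGGTCAATGACCAgagactgag
Saa4: caagcactAGGCCACTGACCTgtagcccca
Abcb11: tggactttAGGCCATTGACCTataagcaaa

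Rdh9 mRNA was 9.42, 10.12 and 8.84 with vehicle and 10.85, 10.41 and 10.51 with GW4064 in WT, and 9.95, 10.30 and 10.55 with vehicle and 9.90, 9.70 and 9.57 with GW4064 in the knockout. The levels with GW4064 were above those with vehicle in WT and below them in the knockout, without overlap in either. The WT effect of 1.13 failed the adjusted test (adjusted p = 0.101 in limma), the knockout effect was -0.54 (95% interval -1.10 to 0.02), and the interaction was 1.67 ± 0.38, or 1.60 without whole-body knockout GW4064 replicate 3. Abcb11 with its match did not share this pattern, with effects of -0.04 and -0.32.

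In the bile acid pathway, Nr0b2 rose and Cyp8b1 fell with GW4064 in WT, and the effects of neither passed the adjusted test in the knockout. Nr0b2 mRNA was 7.85, 7.86 and 8.21 with vehicle and 10.84, 9.59 and 9.04 with GW4064 in WT. In the knockout it was 8.77, 8.16 and 8.16 with vehicle and 8.04, 7.77 and 7.04 with GW4064. Each WT array with GW4064 was above each with vehicle, and each knockout array with GW4064 was below. The WT rise was 1.85 (adjusted p = 0.0433 in limma), the knockout effect -0.75 (95% interval -1.47 to -0.02), and the interaction 2.59 ± 0.48 (SE), or 2.31 without knockout GW4064 replicate 3, whose level of 7.04 was the lowest of all.

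Cyp8b1, the sterol 12α-hydroxylase that directs synthesis towards cholic acid, was 12.23, 11.81 and 11.65 with vehicle and 8.12, 9.79 and 10.46 with GW4064 in WT. Its knockout levels were 12.80, 12.41 and 12.63 with vehicle and 12.56, 12.48 and 11.77 with GW4064. The WT arrays did not overlap and the knockout arrays did. Cyp8b1 fell by 2.44 in WT (adjusted p = 0.0433 in limma) and the interaction was -2.10 ± 0.59, or -2.35 without replicate 3.

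Cyp7a1, the rate-limiting enzyme of bile acid synthesis, had the lowest interaction of all genes, -3.19 ± 0.98 (95% interval -5.26 to -1.12). In WT it was 10.75, 10.44 and 10.61 with vehicle and 5.82, 7.18 and 10.19 with GW4064, and the third of these arrays was near the vehicle level. The knockout arrays held 10.85, 11.10 and 11.73 with vehicle and 12.26, 11.19 and 11.17 with GW4064, which overlap. The WT effect of -2.87 did not pass the adjusted test (adjusted p = 0.11 in limma). Without WT GW4064 replicate 3, the interaction was -4.42 and passed the adjusted test.

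Of 20 genes of bile acid synthesis, Cyp7a1 and Cyp8b1 were past the unadjusted thresholds, both below 0 (10%), 10 of the 20 lay below 0, and the median was -0.01. Without whole-body knockout GW4064 replicate 3, Cyp7b1, the oxysterol hydroxylase of the alternative pathway (0.14 with that array, -0.92 without), was past them as well, 16 of 20 lay below 0, and the median was -0.12. Of 14 transporters of bile acids and biliary lipids, 0 were past them. Abcb11 had an interaction of 0.28 (95% interval -0.15 to 0.71) with levels of 11.44 to 11.66 in WT, and Slco1b2, a hepatic uptake transporter, 0.52 ± 0.23 (SE). Fgf15, made in the ileum, was at 3.95 to 4.70 in all 12 livers and its interaction was -0.01 (95% interval -0.34 to 0.33). Of 11 genes of SHP and FGF15 signalling, Nr0b2 was the one past the thresholds, and the receptors Fgfr4 (-0.05) and Klb (0.37) were not. Of 14 measured FXR targets that the study's paper names, Nr0b2 and Cyp7a1 were past them.

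**Figure D2:**
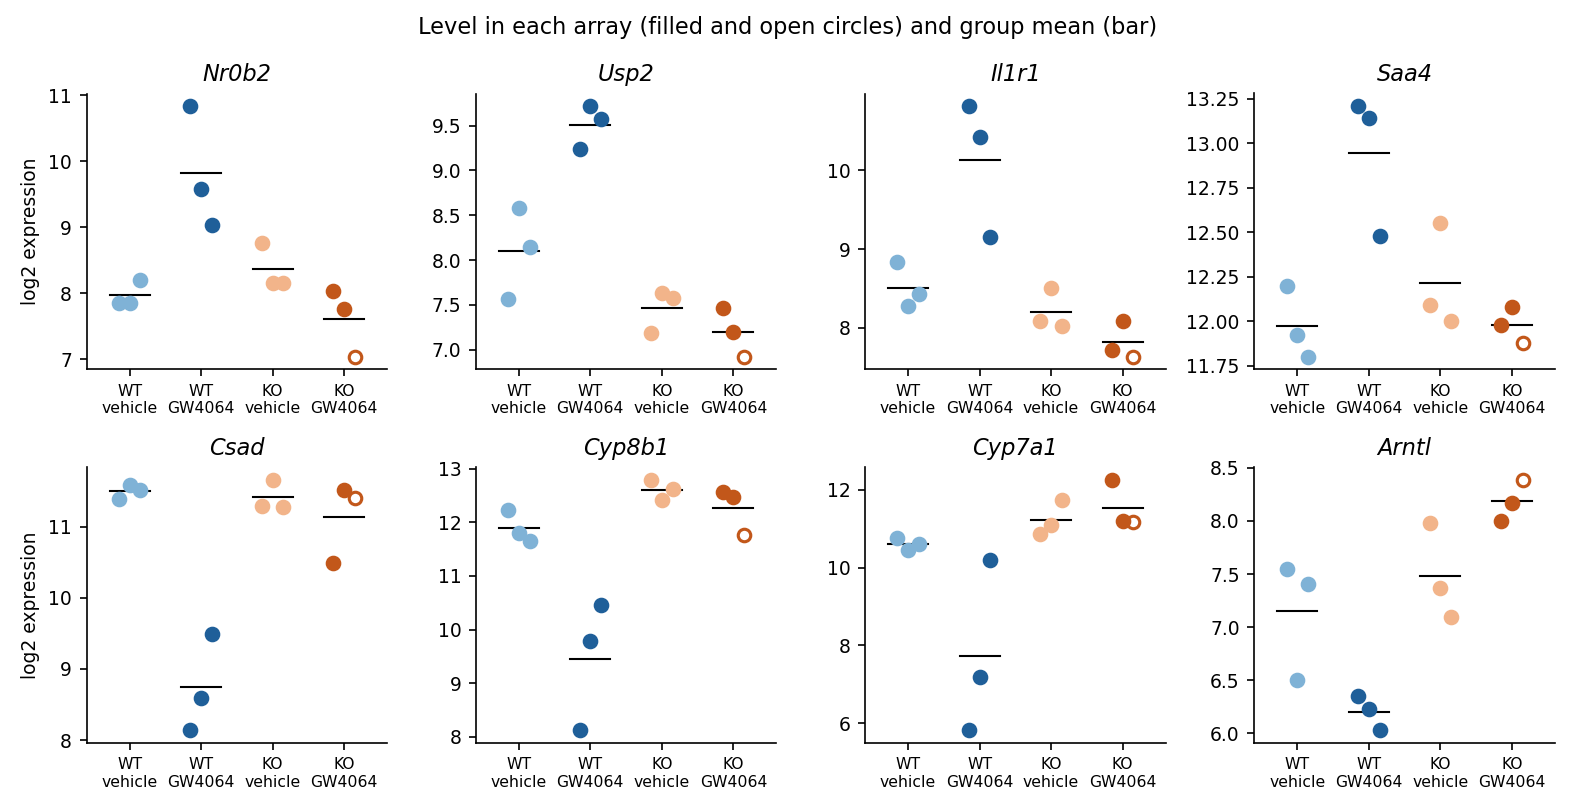
Log2 mRNA level of 8 genes in each array (y axis) by group (x axis: WT and whole-body knockout, vehicle and GW4064), 1 point per array, with the group mean as a line and whole-body knockout GW4064 replicate 3 as an open circle. Nr0b2 in WT lies at 7.85 to 8.21 with vehicle and at 9.04 to 10.84 with GW4064, and the knockout arrays with GW4064 lie at 8.04 or lower.

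Csad, the decarboxylase on the route from cysteine to taurine, with which mouse bile acids are conjugated, had the lowest p of all genes. WT mRNA was 11.38, 11.59 and 11.52 with vehicle and 8.14, 8.59 and 9.49 with GW4064, and the knockout held 11.29, 11.66 and 11.28 with vehicle and 10.49, 11.52 and 11.40 with GW4064. The WT arrays were far apart and the knockout arrays overlapped. Csad fell by 2.76 in WT (adjusted p = 0.000965 in limma), while the knockout effect was -0.28 (95% interval -0.92 to 0.37), giving an interaction of -2.48 ± 0.43, or -2.35 without replicate 3. Of 14 genes of taurine and sulfur amino acid metabolism, Csad and Gclc, a subunit of the first enzyme of glutathione synthesis (-0.62, or -0.49 without replicate 3), were past the thresholds.

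Of 18 genes of the circadian clock, 6 above 0 and 2 below were past the unadjusted thresholds (44.4%, beside 1.98% of all genes), or 3 and 2 without whole-body knockout GW4064 replicate 3. With each array left out in turn, 2 (without WT vehicle replicate 1) to 7 were above 0, with 3 without WT GW4064 replicate 2 or replicate 3, and 2 were below in every case. In an ordinary linear model on the 12 arrays, 4 were above 0 and 2 below. With the mean of each gene's probe sets, 2 were above 0 and 2 below, and the median interaction was 0.24. Above 0 lay Usp2, a deubiquitinase whose mRNA follows the clock, the output factors Dbp, Tef and Hlf, and the period genes Per2 and Per3. In the other direction lay Arntl, which encodes the activator BMAL1, and its relative Npas2, a partner of BMAL1.

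Usp2 mRNA in WT was 7.57, 8.58 and 8.14 with vehicle and 9.24, 9.72 and 9.57 with GW4064. The knockout held 7.19, 7.63 and 7.58 with vehicle and 7.46, 7.20 and 6.92 with GW4064. The WT arrays did not overlap, and each knockout array was lower than each WT array with GW4064. Usp2 rose by 1.42 in WT (adjusted p = 0.0327 in limma) with an interaction of 1.69 ± 0.30, or 1.55 without replicate 3. Arntl was 7.55, 6.50 and 7.41 with vehicle and 6.35, 6.23 and 6.03 with GW4064 in WT, and 7.98, 7.37 and 7.10 with vehicle and 8.00, 8.17 and 8.39 with GW4064 in the knockout, with an interaction of -1.65 ± 0.35. Its levels were lower with GW4064 in WT and higher in the knockout, with no overlap in either, and the effects of -0.95 and 0.70 both failed the adjusted test.

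The other clock genes past the thresholds had interactions of at most 1.60 in size. Per2 was 5.64, 5.90 and 5.36 with vehicle and 6.78, 6.46 and 7.23 with GW4064 in WT, and its interaction was 1.10. Dbp had an interaction of 1.60, which was 1.16 and no longer past p under 0.05 without replicate 3, and Per3 went from 0.60 to 0.48. The effects of Dbp were 0.63 in WT and -0.97 in the knockout. Tef (0.68), Hlf (0.59, or 0.47 without replicate 3, under 1.5 fold) and Npas2 (-0.87) had knockout effects of -0.41, -0.24 and 0.61. Other probe sets gave interactions of -0.12 and 0.33 for Tef, 0.37 for Hlf and 1.76 for Usp2. The median of the 18 genes was 0.36 and 0.27 without replicate 3. Their median effect was 0.10 in WT, -0.12 in the whole-body knockout and 0.31 in the hepatocyte knockout. The time of collection within a group is not given, and its part in these values was not tested.

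**Figure D3:**
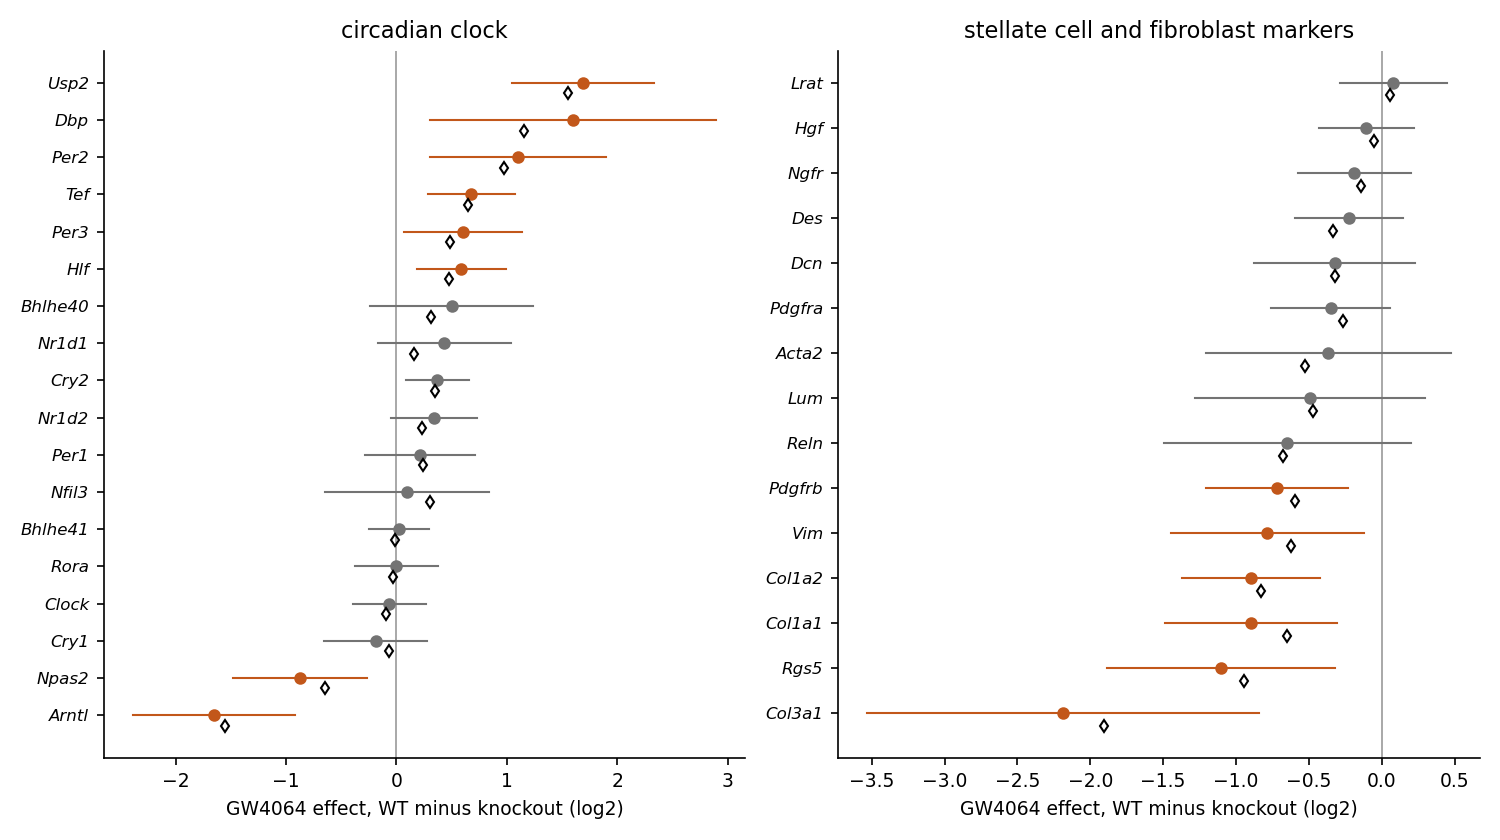
Interaction (x axis, log2) with 95% interval for each measured clock gene and each stellate cell and fibroblast marker (y axis), orange where past the unadjusted thresholds, with diamonds for the value without whole-body knockout GW4064 replicate 3. Of the 18 clock genes, Usp2 at 1.69 and Arntl at -1.65 lie farthest from 0, and 14 of 15 stellate markers lie below 0.

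Acute-phase proteins, which the liver secretes in inflammation, were past the unadjusted thresholds above 0 in 8 of 28 genes (28.6%) and below in 0, or 12 and 0 without whole-body knockout GW4064 replicate 3. Their median interaction was 0.39. Leaving out single arrays moved the count between 4 (without WT GW4064 replicate 1 or replicate 2) and 14 (without WT GW4064 replicate 3), and the median between 0.19 and 0.58. In an ordinary linear model on the 12 arrays, 3 were above 0. Il1r1, the receptor for interleukin-1, was 8.83, 8.27 and 8.43 with vehicle and 10.82, 10.42 and 9.15 with GW4064 in WT, and it rose by 1.62 (adjusted p = 0.0433 in limma). Its knockout levels were 8.08, 8.51 and 8.02 with vehicle and 7.72, 8.09 and 7.63 with GW4064, and the interaction was 2.01 ± 0.44, or 1.92 without replicate 3. The WT groups did not overlap, and the highest knockout level with GW4064 was below every WT level.

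Lcn2, the iron-siderophore binder lipocalin-2, had the highest WT effect. In WT it was 6.14, 6.43 and 5.70 with vehicle and 13.65, 12.91 and 8.22 with GW4064, and it rose by 5.50 (adjusted p = 0.0433 in limma). In the knockout it was 7.88, 8.11 and 9.14 with vehicle and 9.78, 8.52 and 11.94 with GW4064, the last in the array that stood apart. The interaction was 3.80 ± 1.48 and 4.73 without that array. The serum amyloid genes had interactions of 3.07 (Saa2), 1.64 (Saa1), 1.70 (Saa3) and 1.20 (Saa4), and the orosomucoids 2.21 (Orm3) and 0.60 (Orm1), with Serpina3n, a protease inhibitor, at 1.78.

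Saa4, whose promoter window is printed above, was 12.20, 11.92 and 11.80 with vehicle and 13.21, 13.14 and 12.48 with GW4064 in WT. The knockout levels of 12.09, 12.55 and 12.00 with vehicle and 11.98, 12.08 and 11.88 with GW4064 overlapped. The chemokine Cxcl1 (3.26, or 4.29 without replicate 3), the NF-kB cofactor gene Nfkbiz (0.95, and 0.31 at another probe set) and the metal-binding Mt2 were past the thresholds too. Mt2 had the highest interaction of all genes, 4.13 ± 1.71, or 5.34 without replicate 3. It was 7.40, 9.12 and 10.86 with vehicle and 13.55, 13.50 and 10.00 with GW4064 in WT, and 10.88, 11.90 and 12.31 with vehicle and 7.79, 11.35 and 13.23 with GW4064 in the knockout. The treatments overlapped in both genotypes, and the replicates spread over several log2 units. Of the metallothionein and zinc list of 7 genes, Mt2 and the transporter Slc39a14 were past them. Mt1 (2.96) missed the threshold, and was past it without replicate 3 (4.15).

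In bulk liver, fewer cells of a type and less RNA per cell cannot be told apart. The summed level of 10 neutrophil markers was 8.10 to 8.35 with vehicle and 8.13 to 9.32 with GW4064 in WT, and 8.08 to 8.29 in all knockout arrays. S100a9 was 4.76, 5.14 and 4.71 with vehicle and 7.66, 6.00 and 4.97 with GW4064 in WT (interaction 1.53), and S100a8 was 7.56, 5.83 and 4.30 with GW4064 (1.39). Of the 10 markers, 5 lay above 0 and 5 below, with a median interaction of 0.03. S100a9 was the 1 past the unadjusted thresholds, and 2 were past them without whole-body knockout GW4064 replicate 3. Elane, Mpo, Mmp8 and Ltf had interactions of -0.11 to 0.11, and Ly6g was not among the 10. All 10 markers were among the 40% dimmest genes. The lowest marker level was 4.26 with vehicle and 4.11 with GW4064 in WT, and 3.90 and 4.015 in the knockout. At such low levels, interactions near 0 cannot show whether neutrophil mRNA changed. Prtn3, a neutrophil granule protease outside the list and chosen after its values were seen, was 4.32, 4.44 and 4.56 with vehicle and 8.63, 6.90 and 4.80 with GW4064 in WT, with an interaction of 2.05 past the unadjusted thresholds. RMA gives no value of 0, so no marker was absent by the file. Their part in the acute-phase values was not tested. The highest acute-phase list scores were 0.93 and 0.65 in WT GW4064 replicates 1 and 2, against 0.10 in WT GW4064 replicate 3. Whole-body knockout GW4064 replicate 3 scored 0.41, and knockout GW4064 replicates 1 and 2 scored -0.01 and 0.06.

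Markers of stellate cells and fibroblasts, which lay down collagen in the liver, were below 0 in 14 of 15 genes, with 6 past the unadjusted thresholds (40%), or 5 without replicate 3, 4 without knockout vehicle replicate 2 and 3 without both replicate 3 and WT GW4064 replicate 1, and a median of -0.49 (-0.52 without replicate 3, and -0.28 without WT GW4064 replicate 1). The 6 were Col3a1 (-2.19), Rgs5 (-1.10), Col1a1 (-0.90), Col1a2 (-0.90), Vim (-0.78, and not past them without replicate 3) and Pdgfrb (-0.72). Other probe sets gave -0.82 for Col3a1, -0.53 for Col1a1, -0.93 for Col1a2 and -0.28 for Pdgfrb. With the mean of each gene's probe sets, 5 were past the thresholds, and 4 in an ordinary linear model on the 12 arrays. Col3a1 was 7.68, 7.53 and 8.61 with vehicle and 5.37, 7.55 and 7.40 with GW4064 in WT. In the knockout it was 8.77, 8.16 and 8.89 with vehicle and 9.50, 9.20 and 10.19 with GW4064. The knockout arrays did not overlap, and the WT arrays did. The summed level of the 15 markers was 11.33 to 11.67 with vehicle and 10.36 to 11.23 with GW4064 in WT, and 11.90 to 12.09 and 11.95 to 12.32 in the knockout. Every knockout vehicle array was above every WT vehicle array. The collagens as a family, chosen after their values were seen, had 8 of 36 genes past the thresholds below 0 and 0 above, with a median of -0.08.

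Matrix genes outside the marker list were named by their p. Col4a1, a basement membrane collagen, was 7.96, 7.64 and 8.24 with vehicle and 7.09, 7.44 and 7.48 with GW4064 in WT, and 8.07, 7.87 and 8.09 with vehicle and 8.39, 8.27 and 8.77 with GW4064 in the knockout, an interaction of -1.08 ± 0.22. Neither genotype's groups overlapped, and the directions were opposite. Another Col4a1 probe set gave an interaction of -0.42, under 1.5 fold. Fstl1, a secreted glycoprotein, had an interaction of -0.78. The 18 endothelial markers had a median of -0.13 with 0 past the thresholds, and their medians for the effect were -0.38 in WT and -0.30 in the knockout.

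**Figure D4:**
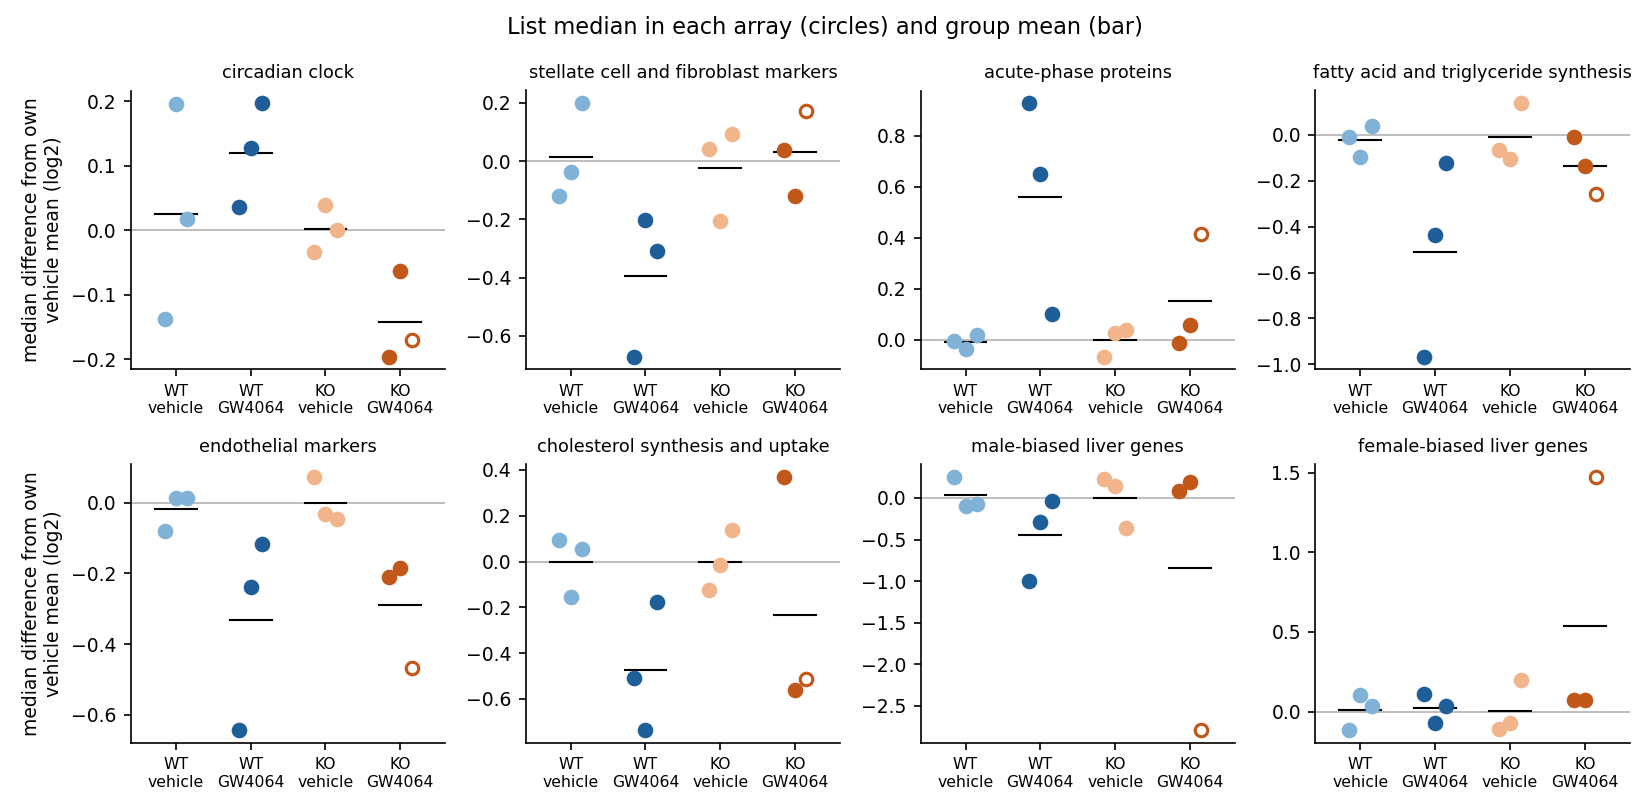
Score per array (y axis, the list's median log2 difference from the WT vehicle mean for WT, or from the knockout vehicle mean for the knockout) for 8 gene lists (panels) in the 4 groups (x axis), with whole-body knockout GW4064 replicate 3 as an open circle. Acute-phase scores reach 0.93 and 0.65 in WT with GW4064 and 0.41 in the open circle, where male-biased genes reach -2.79.

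Lipid and glucose genes were mixed. Of 26 genes of fatty acid oxidation and PPARα targets, 4 were past the thresholds below 0 (15.4%), namely the peroxisomal thiolase Acaa1b (-1.35), Pdk4 (-1.22), which inhibits pyruvate dehydrogenase, Acot1 (-1.17) and the peroxisomal enzyme Ehhadh (-0.83). Without whole-body knockout GW4064 replicate 3 there were 3, as Ehhadh (-0.69) was lost, and in an ordinary linear model 1 was past them. Acot1, an acyl-CoA thioesterase, fell by 1.60 in WT (adjusted p = 0.0433 in limma) with levels of 6.81, 7.98 and 7.20 with vehicle and 5.22, 5.59 and 6.39 with GW4064, and in the knockout 7.77, 7.21 and 8.09 against 7.40, 7.30 and 7.09. Acot1 overlapped between treatments in the knockout, where the effect was -0.43. Of 24 genes of fatty acid and triglyceride synthesis, 18 lay below 0 with a median of -0.40, and the elongase Elovl6 (-1.19) and the desaturase Fads2 (-0.90) were past the thresholds. Without whole-body knockout GW4064 replicate 3, 22 lay below 0 and 3 were past the thresholds, Elovl6 (-1.21) no longer among them, and in an ordinary linear model 0 were. Without WT GW4064 replicate 3, 10 of the 24 were past them, and 1 without WT GW4064 replicate 1. Of 19 genes of cholesterol synthesis and uptake, 0 were past them, with median effects of -0.44 in WT and -0.26 in the knockout.

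In gluconeogenesis and the insulin response, 3 of 21 genes were past the unadjusted thresholds above 0 (Trib3 0.76, Pck1 0.65, Pcx 0.61) and 1 below (G6pc -1.37), or 2 and 1 without whole-body knockout GW4064 replicate 3. In an ordinary linear model on the 12 arrays, and with the mean of each gene's probe sets, it was 1 and 1. Trib3 had effects of 0.21 in WT and -0.55 in the knockout. Its knockout vehicle mean was higher than that of WT by 0.72 (adjusted p = 0.0237 in limma). G6pc, the catalytic subunit of glucose-6-phosphatase, was 12.10, 11.97 and 11.65 with vehicle and 9.38, 10.37 and 11.37 with GW4064 in WT, and 12.01 to 12.50 in the knockout. Pck1, the gluconeogenic carboxykinase, was 12.41, 12.56 and 12.86 with vehicle and 12.98, 13.30 and 12.87 with GW4064 in WT, and the interactions of both enzymes had opposite signs. Of 27 glutathione transferase and NRF2 genes, 4 were past these thresholds below 0 and 1 above (18.5%), or 2 below and 2 above without replicate 3, and 1 to 7 below with single arrays left out (1 without knockout vehicle replicate 2, 7 without WT GW4064 replicate 3), led by Gsta2 (-1.51, and -1.15 and not past p under 0.05 without replicate 3).

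In Alas1 and Tfrc, as in Trib3, the knockout effect was larger in size than the WT effect. Alas1, the first enzyme of heme synthesis, was 11.66 to 12.03 with vehicle and 11.75 to 12.15 with GW4064 in WT, and 10.52, 11.26 and 11.14 with vehicle and 11.97, 12.10 and 11.98 with GW4064 in the knockout. The WT arrays overlapped and the knockout arrays did not, with effects of 0.12 and 1.04 and an interaction of -0.93 ± 0.29, or -0.94 without replicate 3. The knockout vehicle mean was lower than that of WT by 0.91 (adjusted p = 0.0385 in limma). Tfrc, the transferrin receptor, had effects of 0.23 in WT and 1.35 in the knockout, an interaction of -1.12. Cyp2c55, a cytochrome P450, had effects of similar size in both genotypes, -1.20 in WT and 1.29 in the knockout, and without replicate 3 the knockout effect was 0.65 and the interaction went from -2.50 to -1.86.

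The 24 genes that passed the adjusted test for GW4064 in WT (0.194%), 12 that rose and 12 that fell, were set against their knockout arrays, which took no part in choosing them beyond the shared estimate of the spread. The number that passed depended on the fit and on single arrays. It was 0 and 1 in a fit of the 12 arrays of both genotypes and 0 and 0 in an ordinary linear model. With the shared fit it was 0 and 1 when WT vehicle replicate 1 or 3, WT GW4064 replicate 2, knockout vehicle replicate 3 or knockout GW4064 replicate 2 was left out, 1 and 1 without WT GW4064 replicate 1, 138 and 130 without WT GW4064 replicate 3, and 17 and 14 without knockout GW4064 replicate 3. Leaving out any of the other 4 arrays gave 1 to 3 that rose and 4 to 8 that fell. For the 24 genes, the median size in WT was 0.784, and the median knockout effect in the WT direction was 0.0432, or 0.0558 without replicate 3. The sign was the same in 14 and opposite in 10. The interaction had an unadjusted p under 0.05 in 22, all but Bmp6, a bone morphogenetic protein (-0.21), and Lipt2, a lipoyl transferase (0.16), but the WT arrays that chose these genes are part of that value. The knockout arrays did not overlap between treatments in 5 of 24, against 10.3% of all genes. The difference ran against the WT direction in Nr0b2 and Xdh, and along it in Eps8l2, Bmp6 and Lipt2. The 95% interval of the knockout effect left out 0 in Nr0b2, Bmp6 (-0.56 to -0.16) and Lipt2 (0.15 to 0.53).

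Xdh, xanthine dehydrogenase, was 9.25, 9.39 and 9.13 with vehicle and 9.90, 9.75 and 9.59 with GW4064 in WT, and 9.65, 9.66 and 9.68 with vehicle and 9.53, 9.48 and 9.56 with GW4064 in the knockout. Its WT rise was 0.49 and the interaction 0.63. Aqp4, a water channel, was 4.42, 4.50 and 4.19 with vehicle and 5.73, 5.12 and 5.01 with GW4064 in WT, and 4.39, 4.44 and 4.54 with vehicle and 4.52, 4.27 and 3.87 with GW4064 in the knockout, a rise of 0.92 and an interaction of 1.15. The WT arrays of both were apart, and the knockout arrays overlapped for Aqp4. Among the genes that fell in WT were Dnase2a, a lysosomal DNase (by 2.11), Denn2b (by 0.81), and the somatostatin receptor Sstr2 (by 0.55), with interactions of -1.87, -1.06 and -0.69. Sstr2 was 4.95 to 5.08 with GW4064 in WT and 5.03 to 5.16 with vehicle in the knockout. Its knockout vehicle mean was lower than that of WT by 0.48 (adjusted p = 0.0306 in limma).

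Some of the genes with the lowest p did not pass the adjusted test in WT and drew on both genotypes. Bicc1, an RNA-binding protein, was 5.72, 5.55 and 5.69 with vehicle and 5.26, 5.26 and 5.18 with GW4064 in WT, and 5.59, 5.53 and 5.87 with vehicle and 6.36, 5.90 and 6.45 with GW4064 in the knockout. Its effects of -0.43 and 0.57 gave an interaction of -0.998 ± 0.195. Samd4, another RNA-binding protein, was 5.74, 5.71 and 5.42 with vehicle and 4.57, 4.40 and 5.18 with GW4064 in WT, and at most 5.59 with vehicle and 5.94, 5.70 and 5.64 with GW4064 in the knockout, an interaction of -1.44. Both were lower with GW4064 in each WT array and higher in each knockout array. Fgf1, a fibroblast growth factor, was 8.87, 8.92 and 8.77 with vehicle and 9.86, 9.48 and 9.27 with GW4064 in WT, and 8.75, 9.13 and 9.01 with vehicle and 8.74, 9.02 and 8.36 with GW4064 in the knockout. The WT arrays were apart and the knockout arrays overlapped, with an interaction of 0.94 ± 0.23, or 0.77 without replicate 3.

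**Figure D5:**
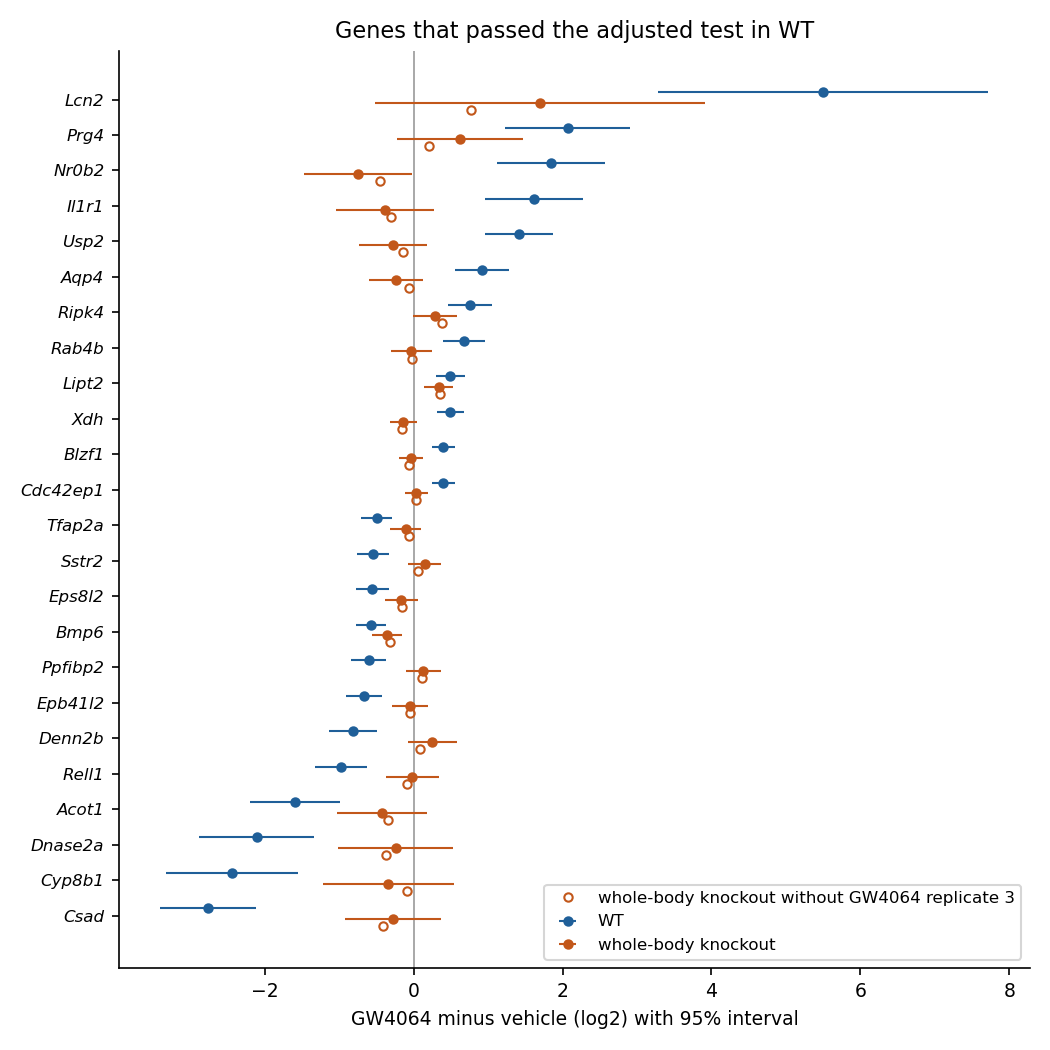
GW4064 effect (x axis, log2 difference from vehicle with 95% interval) in WT and in whole-body knockout for the 24 genes that passed the adjusted test in WT (y axis), with open symbols for the knockout without GW4064 replicate 3. The knockout effects range from -0.75 (Nr0b2) to 1.70 (Lcn2) and centre near 0.

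The mice without FXR in hepatocytes give a second knockout, whose difference from WT shares the WT arrays and so is given by its own values. Csad was 10.21, 10.45 and 10.88 with vehicle and 8.45, 8.94 and 8.17 with GW4064 in these mice, an effect of -1.99, between the whole-body knockout (-0.28) and WT (-2.76). The difference between the 2 knockouts was -1.71 ± 0.43, with an unadjusted p of 0.00101 and an adjusted p of 0.616 in limma, so it failed the adjusted test. Nr0b2 was 7.56, 8.01 and 8.18 with vehicle and 8.78, 9.04 and 8.66 with GW4064, an effect of 0.91, and differed from the whole-body knockout by 1.65 ± 0.48 (adjusted p = 0.815). Nr1h4 mRNA in these livers was 4.17 to 4.69. Alas1 had an effect of -0.64 there and 1.04 in the whole-body knockout, a difference of -1.68 ± 0.29 (adjusted p = 0.158). Over the 24 genes, the median effect of the hepatocyte knockout in the WT direction was 0.076.

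The genes that a published table of FXR binding in GW4064-treated mouse liver names, taken from selected annotation categories, were 339, of which 286 were measured. Of these, 16 were above 0 and 11 below past the unadjusted thresholds (9.44%, against 1.98%), or 16 and 8 without replicate 3. Their median interaction was 0.04. The table covers chosen categories and not every bound gene, and whether the share goes with binding was not tested.

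For the remaining lists, the share past the thresholds is given beside 1.98% of all genes. Of 40 lists, 14 had 0 past them. The drug-metabolism genes controlled by PXR and CAR had 2 above and 2 below of 29 (13.8%). The interleukin-1 and interleukin-6 signalling genes had Il1r1 alone of 23 (4.35%), or 4 without replicate 3. NF-kB targets had 2 of 27 (7.41%), and the endoplasmic reticulum stress genes had 2 above of 25 (8%). Complement and coagulation had 0 of 31. The sex-biased lists turned on the array that stood apart. Male-biased genes had a median of 0.22 with 0 of 12 past the thresholds, which was -0.73 with 4 below without that array, and their medians for the effect in the knockout were -0.72 and 0.15. Female-biased genes had a median of -0.60, or -0.08 without it. WT GW4064 replicate 1 held the lowest Hsd3b5 level of the other 17 arrays, 9.03.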

How the data were processed

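Livers of WT mice, mice without FXR in hepatocytes and mice without FXR in the whole body, given vehicle or GW4064, were measured on 18 arrays (n = 3 per group). The authors normalized the arrays with RMA, whose version is not given in the sources used here, and deposited log2 expression per probe set, used as it stands. RMA pulls array distributions together. The table carries no detection calls, and nothing is called absent. Of 22690 probe sets, 20393 carry 1 gene symbol, 691 several and 1606 are unnamed here. Gene identifiers of 20364 were found in GRCm38.p6, where 0 symbols differed. For 4958 of 12394 genes with more than 1 probe set, the brightest on average was used. The number of arrays limits the precision.

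Fits used limma 3.58.1 (R 4.3.3) on all 18 arrays, with a mean for each of 6 groups and 12 residual degrees of freedom. Tests were two-sided, with Benjamini-Hochberg adjustment over all genes and a threshold of 0.05. The study's thresholds were also applied, 1.5 fold with an unadjusted p under 0.05. The fit was tested on simulated data. The named genes are the 10 in each direction with the lowest unadjusted p past those thresholds, since none passed the adjusted test, then Nr1h4, the bile acid genes, Lcn2, the FXR targets the paper names and up to 4 members of each list with the lowest p. Other names were picked with their values in view. The members and lists were chosen with earlier results of these data known. Alternatives were a fit of the 12 arrays alone, a trended and robust prior, an ordinary linear model, weighting of arrays, centring on the median, another quantile normalization, dropping the 40% dimmest genes, using all probe sets or their mean, blocking on the replicate number, and dropping single arrays. Figures were drawn with matplotlib 3.10.9 in Python 3.11.15.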

Additional observations from a re-analysis of the deposited data

How the results depend on the processing

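The count of genes past the adjusted test was 0 above 0 and 0 below, at every setting but these. It was 1 and 1 with the replicate number as a block (Usp2 and Csad, lowest adjusted p = 0.0383 in limma), and with single arrays left out it ranged from 0 to 16 above and from 0 to 6 below, the highest without WT GW4064 replicate 3. The unadjusted counts of 106 and 139 were 55 and 78 in an ordinary linear model on the 12 arrays, 161 and 213 over all probe sets, and 79 and 81 without both WT GW4064 replicate 1 and whole-body knockout GW4064 replicate 3. Leaving out single arrays gave 71 (without WT GW4064 replicate 1) to 188 (without WT GW4064 replicate 3) above and 100 to 227 (without whole-body knockout GW4064 replicate 2) below. Of 1308 values of 60 named genes over the alternatives with 1 value per gene, 1293 kept their direction and side of the adjusted threshold, 15 passed it and 0 reversed. No gene passed that threshold in the main fit, so a value that kept its side stayed uncalled. Of 879 list medians, 76 moved by more than the spread, among them the male-biased list, which turned to -0.73 without whole-body knockout GW4064 replicate 3. The neutrophil list has no value without the 40% dimmest genes, since 0 of its members remained. The deviations of same-numbered arrays correlated between -0.229 and 0.272 over 18 pairs, with 7 above 0.1. Arrays with different numbers were not compared in this way, so whether replicate numbers pair the samples was not tested. The block is given here alone, and it called Usp2 and Csad. The cause of these changes was not tested.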
